A study of Mus musculus with 28 samples.

Results

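The 10 genes described here encode the cytokines Il1a, Il1b, Tnf, Il6, Il23a and Il10, the interleukin 1 (IL1) antagonist Il1rn, the IL1 decoy receptor Il1r2, the inflammasome sensor Nlrp3 and the costimulatory receptor Cd40. They were chosen by name, and their peaks are those whose nearest protein-coding gene span in mm10, at most 50 kb away, is 1 of these genes. By this rule they held 50 of 63313 peaks of acetylated histone H3 lysine 27 (H3K27ac), with at least 1 peak at each gene, and 6 of 8394 peaks of the glucocorticoid receptor (GR), at Il1b, Nlrp3, Tnf and Cd40. A filter on low counts left 48 of these H3K27ac peaks and 4 of these GR peaks for testing, of 59881 and 5183 tested in all. In macrophages the IL1, Tnf and Il6 genes are induced by microbial products through NF-kB, and Nlrp3 then assembles with Pycard and caspase 1 into the inflammasome, which cleaves pro-IL1B to its active form. Glucocorticoids act through GR, a nuclear receptor that binds DNA and is known for restraining many of these cytokine genes, while IL4 signals through STAT6 and drives alternative activation. H3K27ac marks active promoters and enhancers, so it describes the regulatory state of a gene and is not a measure of its transcript. The labels name no inflammatory stimulus in any group.

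All groups shared the same cells, bone-marrow-derived macrophages of C57BL/6 males, 8 to 10 weeks old, which had matured over 5 days with L-cell conditioned medium as the source of growth factor. The treatments were 500 nM of the glucocorticoid natural to mice, corticosterone (Cort), 100 nM of a synthetic one, dexamethasone (Dex), 10 ng/ml of IL4, or vehicle, for 24 h, except that no time is given in the titles of H3K27ac vehicle libraries. H3K27ac was measured in 3 libraries each of Cort, Dex, IL4 and vehicle, and GR in 4 libraries each of Cort, Dex and vehicle and 3 of IL4. The labels do not state that replicates came from separate animals or cultures, so p-values cover the spread between libraries, which may be technical. Reads in peaks were 6829787 to 15695771 per H3K27ac library and 900063 to 1981582 per GR library. GR libraries came in batches 1 and 2, with 2 of each steroid and of vehicle in each and all IL4 libraries in batch 2, and 84 peaks held 77.6% to 96.2% of the reads of a GR library. All 6 macrophage markers (Csf1r, Adgre1, Spi1, Cd68, Fcgr1 and Mertk) had a tested H3K27ac peak. As a check of the labels, H3K27ac at Cd163, a scavenger receptor gene induced by glucocorticoids, rose by 3.27 ± 0.18 with Cort and 3.32 ± 0.18 with Dex on the log2 scale (± SE, edgeR adjusted p = 4.53e-06 and 3.85e-06), and that at Itgax rose by 2.75 ± 0.17 with IL4 (adjusted p = 9.83e-07).

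Promoter windows of RefSeq (assembly GRCm38.p6, 250 bases before to 50 after a start) were matched for 7 of the 10 genes, and 3 are shown. The Nlrp3 window at chr11:59541319-59541618, on the + strand, is shown because a GR peak lies wholly inside it, and capitals mark the 160 bases of that peak, which run from 154 bases before the start to base 6 counted from the start. The Il1r2 window at chr1:40085843-40086142, on the + strand, lies in the H3K27ac peak over the Il1r2 start. Among peaks of these genes over a start, only that peak was called with Dex over all libraries without the replicate block described below. With that block the peak over the Nlrp3 start was called too. The Il1r2 window has no capitals because none of the 5 motifs searched was found. The Il1rn window at chr2:24345041-24345340, on the + strand, belongs to an inner start of the gene and its capitals mark the only STAT match among the Il1rn starts.
Nlrp3: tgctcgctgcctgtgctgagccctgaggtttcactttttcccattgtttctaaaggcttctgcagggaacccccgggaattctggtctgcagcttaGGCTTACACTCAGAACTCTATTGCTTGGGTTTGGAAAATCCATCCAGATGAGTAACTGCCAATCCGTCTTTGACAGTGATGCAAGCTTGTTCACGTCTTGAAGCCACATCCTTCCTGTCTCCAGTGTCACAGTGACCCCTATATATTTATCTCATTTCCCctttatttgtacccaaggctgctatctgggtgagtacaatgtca
Il1r2: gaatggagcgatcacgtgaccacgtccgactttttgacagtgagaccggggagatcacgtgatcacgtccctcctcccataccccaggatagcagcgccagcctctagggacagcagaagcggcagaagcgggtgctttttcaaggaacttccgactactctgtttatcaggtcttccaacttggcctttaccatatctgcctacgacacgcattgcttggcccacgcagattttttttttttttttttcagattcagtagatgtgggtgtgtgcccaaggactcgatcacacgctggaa
Il1rn: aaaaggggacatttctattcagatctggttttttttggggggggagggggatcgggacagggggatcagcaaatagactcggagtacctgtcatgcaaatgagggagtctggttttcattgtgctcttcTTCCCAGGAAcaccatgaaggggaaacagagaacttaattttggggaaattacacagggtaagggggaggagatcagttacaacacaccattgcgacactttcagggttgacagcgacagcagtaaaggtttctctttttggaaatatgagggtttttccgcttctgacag
The motifs searched on both strands were a GR element (ACANNNTGT), a STAT site (TTC and GAA with any 4 bases between them), an AP-1 site (TGANTCA), a PU.1 site (GAGGAA) and an NF-kB site. Of all 32851 promoter windows, 6.85% held the GR element, 6.95% the STAT site, 7.81% the AP-1 site, 28.3% the PU.1 site and 8.46% the NF-kB site. The GR element was in none of the windows of the 7 genes. The printed Nlrp3 window held an NF-kB match 186 to 177 bases before the start, outside the GR peak, and none of the 5 motifs lay inside that peak. A window at a second Nlrp3 start (chr11:59542436-59542735) held a STAT match and 3 PU.1 matches. Il6 held an AP-1 match at 249 to 243 and an NF-kB match at 44 to 35 bases before its start, Il1a an AP-1 match at 12 to 6 and a PU.1 match at 41 to 36 bases before its start, and Il1b none of the 5. A match is a stretch of letters and no evidence of binding.

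Most H3K27ac peaks of these genes did not pass the test with the steroids. In the fit with a replicate block, given below, most steroid calls belonged to Nlrp3 (5 of 9 with Cort, 7 of 12 with Dex). Nlrp3 holds 12 of the 48 tested peaks. With the block and without replicate 2 of every group, most steroid calls belonged to other genes. Then 7 of 12 calls with Cort and 10 of 17 with Dex were lower, none of them at Nlrp3. Over all 54275 peaks tested in that fit, 4295 were higher and 4445 lower with Cort, and 5883 and 6427 with Dex. Peaks were called at an adjusted p under 0.05 in edgeR's quasi-likelihood test over all tested peaks. With Cort, 0 of 48 peaks were called, against 1.55% of all tested peaks. An unadjusted p under 0.05 was found at 11 of the 48, beside 8246 of all 59881 tested peaks. DESeq2 called 1 of the 48, beside 1217 higher and 695 lower of all tested peaks. With Dex, 2 peaks rose and 1 fell, while 5.24% of all tested peaks were called (2.9% higher, 2.34% lower). With IL4, 4 rose and 3 fell, while 27.6% of all tested peaks were called (14.7% higher, 12.9% lower). The median log2 fold change of the 48 peaks was 0.23 with Cort, 0.10 with Dex and -0.15 with IL4, beside 0.00, 0.01 and -0.02 over all tested peaks. H3K27ac libraries with the same replicate number varied together, and a fit with the replicate number as a block called 9 peaks with Cort (7 higher, 2 lower), 12 with Dex (9 higher, 3 lower) and 19 with IL4 (9 higher, 10 lower). In that fit 12.6% of all tested peaks were called with Cort (6.44% higher, 6.13% lower), 20.3% with Dex (9.91% higher, 10.3% lower) and 43.5% with IL4 (21.9% higher, 21.6% lower). Of all called peaks without the block, 75.8% with Cort and 55.3% with Dex were higher, against 63.2% and 45.0% with scaling by total counts and 89.3% and 63.8% with scaling on low-count peaks. All Cort, Dex and IL4 comparisons use the same vehicle libraries. These are bulk libraries, so a mark on fewer cells and less of the mark per cell cannot be told apart.

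**Figure D1:**
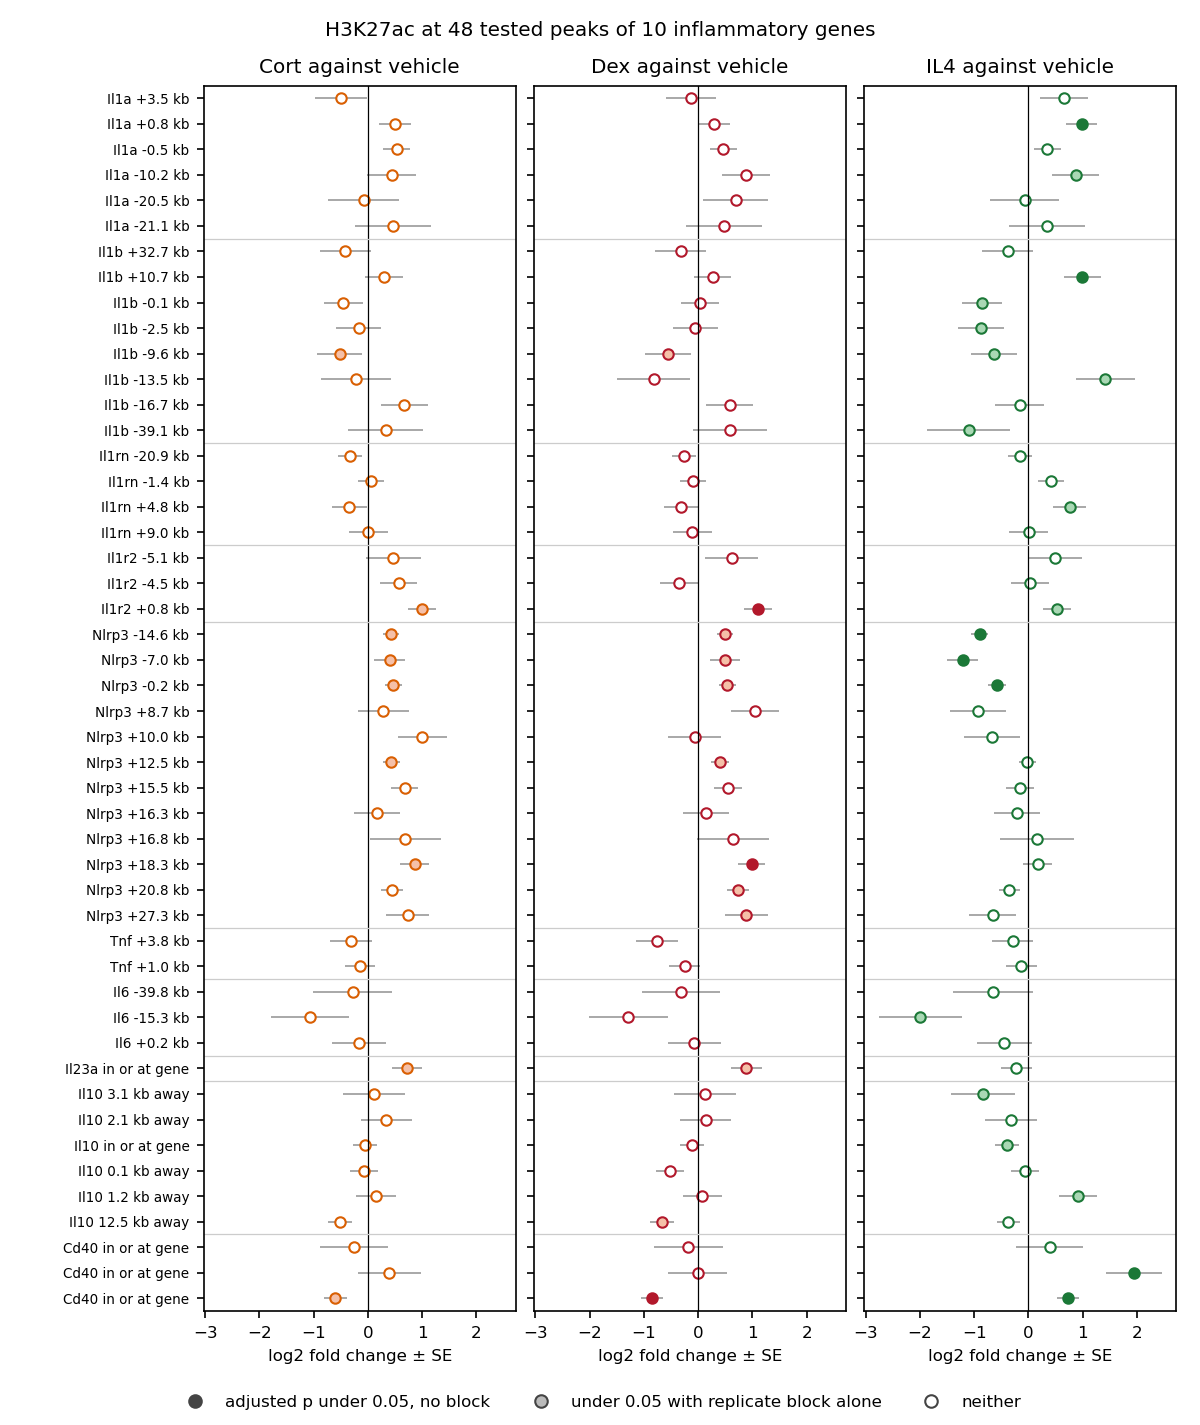
Log2 fold change against vehicle (x axis, bars ± SE) of H3K27ac at the 48 tested peaks, 1 line per peak, in panels for Cort, Dex and IL4 with 3 libraries per group. Labels give the offset of the peak's midpoint from a known start or, with none, the distance from the gene, filled points were called without the block, pale points with the block alone, and in the Nlrp3 block of 12 peaks 12 lie above 0 with Cort, 11 with Dex and 2 with IL4.

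Il1a and Il1b encode the IL1 ligands, of which Il1a is active as made and Il1b needs cleavage by caspase 1. Levels are given in CPM, counts scaled by the library's total and normalised by the TMM method. At the Il1a start (chr2:129309778-129311158) H3K27ac was 5.53, 6.83 and 6.96 CPM with Cort, 4.65, 8.12 and 5.7 with Dex, 5.3, 6.24 and 5.62 with IL4, and 3.22, 5.32 and 4.78 in vehicle. Every Cort library lay above every vehicle library, and the Dex and IL4 libraries overlapped with vehicle, with no call in any of the 3 comparisons without the block. Within replicate numbers the signal was above vehicle in 3 of 3 pairs with each treatment. That was so at 21.1% of all tested peaks with Cort, 24% with Dex and 31% with IL4. Inside the gene, at chr2:129308641-129309644, the signal was 2.71, 4.62 and 5.41 CPM with IL4 and 2.1, 2.38 and 2.05 in vehicle. All IL4 libraries were above all vehicle libraries and the peak rose by 0.98 ± 0.28 (± SE, adjusted p = 0.0204). In the fits with no block, the call did not hold without vehicle 3 (adjusted p = 0.0696), IL4 2 (0.0593) or IL4 3 (0.109). Over the 6 Il1a peaks the changes ran from -0.49 to 0.53 with Cort, -0.13 to 0.88 with Dex and -0.07 to 0.98 with IL4, and none was called with a steroid in either fit. With IL4, 1 was called higher without the block and 2 with it.

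At Il1b, H3K27ac changes with IL4 had both signs, on either side of the gene. The peak over the Il1b start (chr2:129370951-129371584) was small, with 1.56, 1.74 and 1.23 CPM with Cort, 1.96, 2.89 and 1.54 with Dex, 1.36, 1.46 and 0.677 with IL4, and 2.72, 1.97 and 1.67 in vehicle. The IL4 libraries all lay below vehicle, by -0.86 ± 0.37 (adjusted p = 0.1, and 0.0234 with the replicate block), and the Cort and Dex libraries overlapped with vehicle. The strongest peak of the gene lay 8.05 kb upstream (chr2:129379217-129382200) and held 30.3, 82 and 38.6 CPM with Cort, 27.8, 86.3 and 33.4 with Dex, 40.5, 58.8 and 41.2 with IL4, and 60.7, 96.3 and 61 in vehicle. Replicate 2 was the highest library of each group, so the steroid groups overlapped with vehicle while every IL4 library was below it. Within replicate numbers the signal was lower than in vehicle in 3 of 3 pairs for each treatment, and the fit with the block gave log2 fold changes of -0.61 ± 0.15 with Cort (adjusted p = 0.0085), -0.68 ± 0.15 with Dex (0.00205) and -0.62 ± 0.15 with IL4 (0.00166). Without the block the same peak was not called, with adjusted p = 0.653, 0.517 and 0.291. Beyond the other end of the gene, 3.4 kb away (chr2:129359736-129361169), the signal was 11.6, 10.3 and 12.3 CPM with IL4 and 4.95, 7.29 and 4.96 in vehicle. The IL4 libraries were all above vehicle and the peak rose by 0.99 ± 0.34 (adjusted p = 0.0454). With no block this call held in 1 of 6 leave-one-out fits, in which its adjusted p ran up to 0.128. A weak peak 13.3 kb upstream (chr2:129384483-129384783) was also above vehicle, at 1.6, 1.62 and 1.08 CPM with IL4 and 0.248, 0.983 and 0.31 in vehicle, and its change of 1.42 ± 0.55 was called with the block alone (adjusted p = 0.071 without it and 0.0258 with it). A peak 25.3 kb beyond the other end (chr2:129337665-129339311) was at 12, 13.5 and 13.3 CPM with IL4 and 14.2, 23.3 and 12.9 in vehicle, which overlapped and were not called. With IL4 and the block, 2 of the 8 Il1b peaks were higher and 4 lower.

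Il1rn and Il1r2 restrain IL1 signalling, and over all libraries without the block Il1r2 had a called peak and Il1rn had none; the difference between them was not tested. Il1rn encodes the antagonist that occupies the IL1 receptor, and Il1r2 a decoy receptor that binds IL1 without signalling. At Il1rn 0 of 4 tested peaks were called with any treatment. Its peak over the inner start (chr2:24344570-24347060), which holds the STAT match shown above, was 13, 26.8 and 11.3 CPM with Cort, 11.1, 26.2 and 10.3 with Dex, 16.6, 20.3 and 14.8 with IL4, and 16.5, 19.7 and 15.3 in vehicle. All groups overlapped there. A peak inside the gene (chr2:24340878-24342342) was 5.24, 6.34 and 4.04 CPM with Cort, 3.67, 8.76 and 3.51 with Dex, 11.6, 10.8 and 11.4 with IL4, and 7.92, 5.16 and 6.88 in vehicle. The IL4 libraries were all above the other 9, and the IL4 change of 0.76 ± 0.31 was called only with the block (adjusted p = 0.0869 without it and 0.0125 with it). Without replicate 2 of every group, an alternative chosen after the data were seen, this peak was called lower with Dex (-1.05 ± 0.23, adjusted p = 0.0136) and higher with IL4 (0.64 ± 0.21, adjusted p = 0.0366).

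At Il1r2 the H3K27ac peak over the start (chr1:40085499-40088340) was 25.1, 15.9 and 13.5 CPM with Cort, 24.7, 18.4 and 15.4 with Dex, 14.5, 11.8 and 12.8 with IL4, and 10.8, 9.83 and 6.7 in vehicle. Every treated library exceeded every vehicle library. The peak rose by 1.11 ± 0.26 with Dex (95% interval 0.54 to 1.67, adjusted p = 0.0268), while the Cort change of 1.0 ± 0.26 had an adjusted p of 0.0821 and the IL4 change of 0.53 ± 0.26 one of 0.157. With the block all 3 changes were called, at adjusted p = 0.000181 for Cort, 1.81e-05 for Dex and 0.00705 for IL4. Within replicate numbers 1, 2 and 3 the ratio to vehicle was 2.33, 1.62 and 2.01 with Cort, 2.29, 1.87 and 2.3 with Dex, and 1.35, 1.2 and 1.91 with IL4, all above 1. Without the block the Dex call did not hold without vehicle 2 (adjusted p = 0.0736), vehicle 3 (0.124) or Dex 1 (0.112).

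Nlrp3 encodes the sensor that nucleates the inflammasome, and over its start H3K27ac lay above vehicle with both steroids and below it with IL4. The 12 peaks of the gene were tested, from 14.6 kb before the start to 27.3 kb after it (midpoints). The widest, over the start (chr11:59536252-59546441, 10.2 kb long), held 290, 342 and 268 CPM with Cort, 295, 392 and 256 with Dex, 135, 165 and 135 with IL4, and 217, 229 and 203 in vehicle. All steroid libraries were above all vehicle libraries and all IL4 libraries below them. The peak fell by 0.58 ± 0.16 on the log2 scale with IL4 (log2 fold change -0.58, 95% interval -0.91 to -0.24, adjusted p = 0.0147). The changes of 0.47 ± 0.16 with Cort and 0.54 ± 0.16 with Dex had adjusted p = 0.178 and 0.0651, and 0.000403 and 5.59e-05 with the block. In the fits with no block, the IL4 call did not hold without IL4 1 (adjusted p = 0.0568) or IL4 3 (0.0669).

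The same order was seen at the pair of upstream Nlrp3 peaks. At chr11:59524971-59529000, 12.6 kb before the gene, the signal was 83.8, 107 and 78.3 CPM with Cort, 88.2, 112 and 82.5 with Dex, 33.8, 41 and 33.1 with IL4, and 64.9, 70 and 66.3 in vehicle. No IL4 or steroid library overlapped with vehicle, and the IL4 change was -0.9 ± 0.16 (adjusted p = 0.00103), with an adjusted p of 0.0082 or less in all 6 leave-one-out fits. At chr11:59532979-59536168, 5.4 kb before the gene, the signal was 59, 93.2 and 58.9 CPM with Cort, 60.9, 100 and 63.5 with Dex, 17.4, 33.5 and 18.1 with IL4, and 43.3, 65.6 and 50.8 in vehicle. Each IL4 library was below each vehicle library while the steroid libraries overlapped with vehicle, and the IL4 change was -1.21 ± 0.29 (adjusted p = 0.00719). With the block both upstream peaks were also higher with Cort (0.41, adjusted p = 0.00445, and 0.38, adjusted p = 0.0133) and Dex (0.48, adjusted p = 0.000559, and 0.47, adjusted p = 0.00147). Over the 3 peaks and the 3 replicate numbers the ratio to vehicle was 1.16 to 1.53 with Cort, 1.24 to 1.71 with Dex, and 0.36 to 0.72 with IL4.

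Inside the Nlrp3 gene, past the peak over the start, 1 peak was called with Dex and none with IL4 without the block. At chr11:59559348-59560301 the signal was 3.54, 4.6 and 3.82 CPM with Cort, 4.65, 4.1 and 4.46 with Dex, 2.96, 2.76 and 1.83 with IL4, and 2.72, 1.8 and 2.17 in vehicle. All steroid libraries exceeded vehicle, and IL4 overlapped with it. The Dex change of 0.99 ± 0.25 was called with no block (adjusted p = 0.0382). In such fits it was not called without vehicle 2 (0.155), vehicle 3 (0.13), Dex 1 (0.111) or Dex 3 (0.116). With the block, 5 of the 12 Nlrp3 peaks were called higher with Cort, 7 higher with Dex and 3 lower with IL4, and none of the 12 in the other direction. The median log2 fold change of the 12 peaks was 0.46 with Cort, 0.54 with Dex and -0.46 with IL4.

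**Figure D2:**
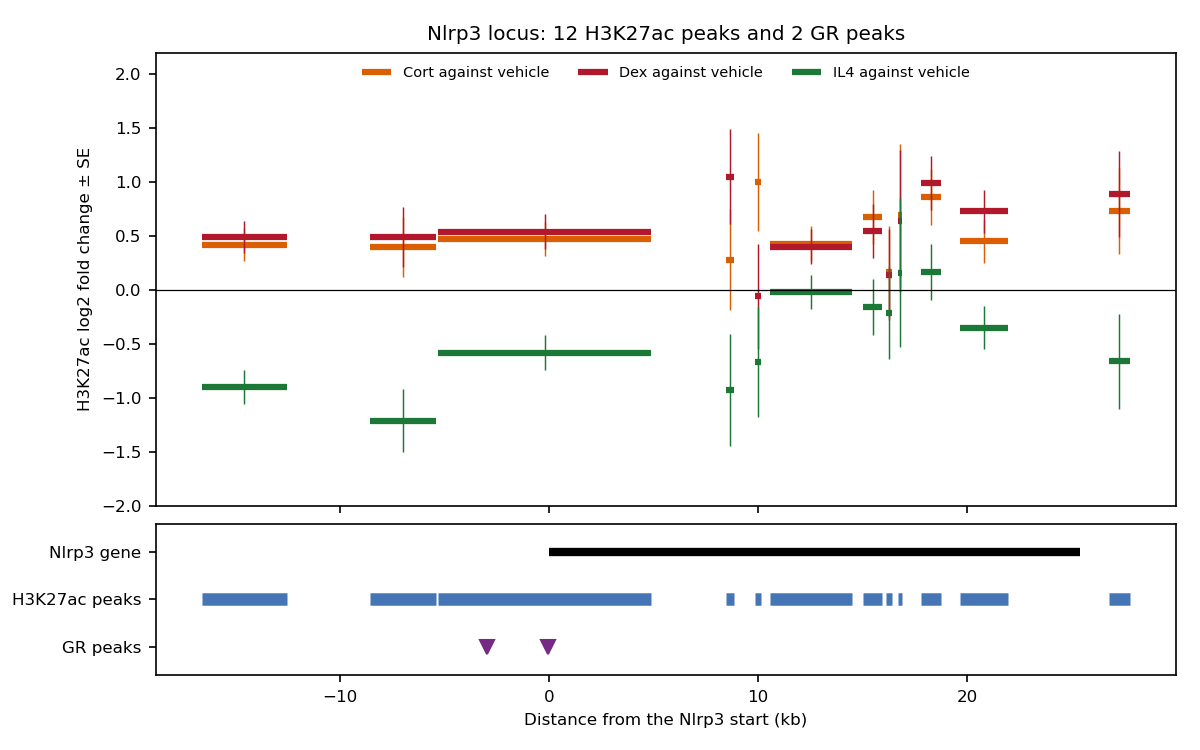
The Nlrp3 locus by distance from the start in kb (x axis). Above, each bar spans 1 of 12 H3K27ac peaks at its log2 fold change against vehicle (± SE) with Cort, Dex or IL4, and below are the gene, the H3K27ac peaks and the 2 GR peaks, where the Cort and Dex bars of the 3 leftmost peaks lie near 0.4 to 0.54 and the IL4 bars at -0.58 to -1.21.

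GR was measured at 2 Nlrp3 sites, both inside the H3K27ac peak over the start. The site in the promoter window printed above (chr11:59541415-59541574) held 24, 25, 19 and 19 reads in the Cort libraries, 20, 29, 24 and 22 in the Dex libraries, 7, 15 and 16 in the IL4 libraries, and 4, 3, 6 and 0 in the vehicle libraries. In normalised terms this was 11.1, 12.3, 10.7 and 10.7 CPM with Cort, 11.1, 14.1, 14.3 and 10.2 with Dex, 4.78, 10 and 12 with IL4, and 5.66, 3.34, 3.81 and 0 in vehicle, where the count of 0 in vehicle 4 allows up to 3.88 CPM, for counting error only. All steroid libraries were above all vehicle libraries. The lowest IL4 library lay within the range of all vehicle libraries. Within batch 2, which holds all IL4 libraries, each IL4 library was above both vehicle libraries (3.81 and 0 CPM). GR rose by 1.75 ± 0.45 with Cort (95% interval 0.78 to 2.72, adjusted p = 0.0118) and 1.9 ± 0.45 with Dex (0.94 to 2.87, adjusted p = 0.00541), and both calls held in all 8 leave-one-out fits. Of all tested GR peaks, 27.6% were called with Cort (12.8% higher) and 30.3% with Dex (14.7% higher). Batch 1 alone gave 1.54 ± 0.57 with Cort (adjusted p = 0.0387) and 1.61 ± 0.57 with Dex (0.029), and batch 2 alone gave 2.1 ± 0.84 (0.148) and 2.35 ± 0.83 (0.131), where no GR peak of the whole table was called with either steroid. The IL4 change of 1.54 ± 0.52 had an adjusted p of 0.41, and 0 of all GR peaks were called with IL4 by edgeR, against 612 at an unadjusted p under 0.05 and 25 higher and 166 lower by DESeq2.

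At the GR site 2.86 kb before the Nlrp3 gene (chr11:59538446-59538708) the signal was 20.4, 11.8, 22 and 14.6 CPM with Cort, 17.7, 16.5, 20.2 and 16.3 with Dex, 8.2, 9.36 and 11.3 with IL4, and 1.42, 8.92, 10.8 and 12.9 in vehicle. Dex lay above every vehicle library, Cort did so within each batch, and IL4 overlapped with vehicle. The Dex change of 1.06 ± 0.39 was called (adjusted p = 0.0491), the Cort change of 1.02 ± 0.38 was not (0.0612), and the Dex call held in 1 of 8 leave-one-out fits (adjusted p up to 0.101). Batch 1 alone gave 1.67 ± 0.54 with Cort and 1.71 ± 0.54 with Dex, and batch 2 alone 0.54 ± 0.47 and 0.58 ± 0.47. The other tested GR peaks, inside Il1b (chr2:129367992-129368068) and Tnf (chr17:35201720-35201827), were not called. Il1b held 5.1, 8.37, 1.13 and 0 CPM with Cort, 2.77, 3.88, 0 and 0.929 with Dex, 2.05, 2.67 and 0.752 with IL4, and 2.83, 15.6, 1.27 and 5.17 in vehicle. The groups overlapped, and the Dex change of -1.73 ± 0.69 had an adjusted p of 0.0717 by edgeR, 0.0185 by DESeq2 and 0.0189 by edgeR without vehicle 1. Tnf held 5.56, 6.89, 0 and 1.13 CPM with Cort, 8.32, 3.39, 1.79 and 0.465 with Dex, 4.78, 0.668 and 2.26 with IL4, and 1.42, 15.6, 0.635 and 2.58 in vehicle, and all groups overlapped. The untested GR peaks held 0 to 21 reads per library inside Il1b (chr2:129364993-129365068) and 0 to 11 inside Cd40 (chr2:165063098-165063185). GR change depends on the scaling: by total counts in peaks the median of all GR peaks moved by 0.78 with Cort and 0.98 with Dex on the log2 scale, and the Nlrp3 start site then changed by 2.51 ± 0.53 and 2.86 ± 0.53. Of the called GR peaks, 46.3% with Cort and 48.5% with Dex were higher, against 98.5% and 98.7% by total counts, and 56.4% with Cort by scaling on low-count peaks.

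**Figure D3:**
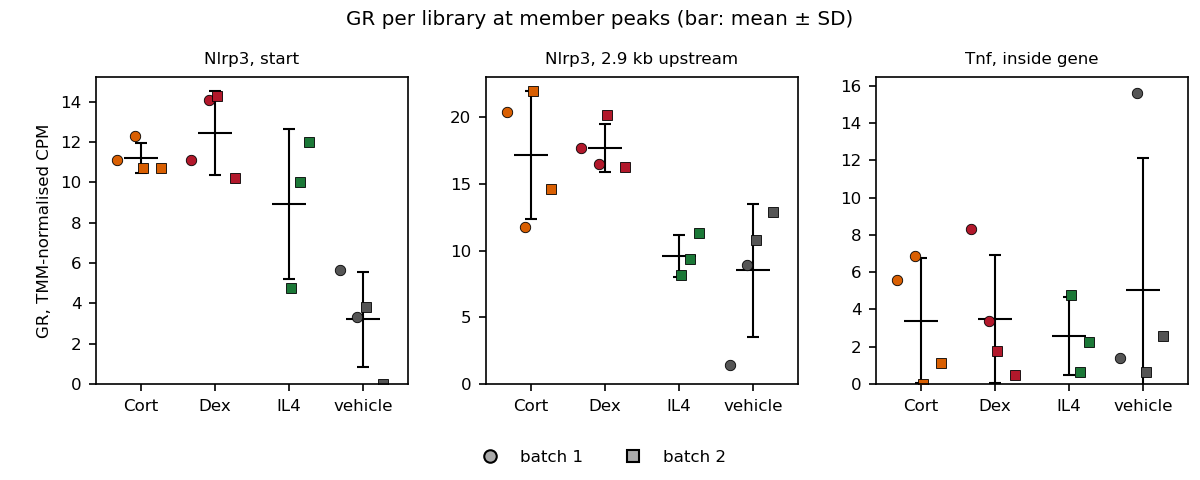
GR signal (y axis, TMM-normalised CPM) at the Nlrp3 start, 2.9 kb upstream of Nlrp3 and inside Tnf for Cort, Dex and vehicle (4 libraries each) and IL4 (3), with points shaped by batch and bars at the mean ± SD. At the Nlrp3 start the steroid libraries sit between 10.2 and 14.3 CPM and the vehicle libraries between 0 and 5.66.

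Tnf, Il6 and Il23a encode secreted inflammatory cytokines, Il23a being a subunit of IL23. The Tnf peak (chr17:35198639-35203351), which also overlaps the neighbouring Lta, held 71.7, 120 and 75 CPM with Cort, 64.1, 127 and 59.3 with Dex, 81.8, 106 and 83.4 with IL4, and 93, 119 and 85.9 in vehicle. All groups overlapped, and the changes of -0.15 ± 0.28, -0.25 ± 0.28 and -0.13 ± 0.28 with Cort, Dex and IL4 had adjusted p = 0.875, 0.69 and 0.769. The other Tnf peak (chr17:35197924-35198407) was weak, with 1.42, 1.39 and 1.57 CPM with Cort, 0.734, 1.77 and 0.658 with Dex, 1.73, 0.972 and 1.76 with IL4, and 1.73, 1.56 and 2.11 in vehicle. The groups overlapped there too, and over all libraries no change was called with or without the block. Per kb of peak, Tnf in vehicle (21.1 CPM per kb) was as high as the Nlrp3 start (21.2), and the Il6 start was at 4.0 and the Il1b start at 3.35 CPM per kb. Il6 at its start (chr5:30012841-30013838) held 2.69, 6 and 1.57 CPM with Cort, 2.81, 6.27 and 2.27 with Dex, 2.09, 4.62 and 2.03 with IL4, and 3.71, 5.16 and 3.1 in vehicle. The groups overlapped and there was no call, and an Il6 peak 15 kb upstream (chr5:29997561-29998066), at -1.99 ± 0.77 with IL4 and at most 29 reads in a library, was called only with the block (adjusted p = 0.0718 without it and 0.0123 with it). All 3 tested Il6 peaks, of 4 in all, lay below 0 with each treatment, from -1.07 to -0.17 with Cort, -1.29 to -0.07 with Dex and -1.99 to -0.44 with IL4.

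Il23a had a single peak, over the upper-coordinate end of the gene (chr10:128297892-128299105), and it was above vehicle with both steroids. It held 10.3, 6.41 and 5.95 CPM with Cort, 10.4, 8.84 and 6.29 with Dex, 4.93, 3.89 and 3.05 with IL4, and 5.45, 4.01 and 4.28 in vehicle. All steroid libraries were above all vehicle libraries, and IL4 overlapped with vehicle. The changes were 0.72 ± 0.28 with Cort (adjusted p = 0.259, and 0.0199 with the block) and 0.89 ± 0.28 with Dex (0.0816, and 0.00144 with the block).

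Il10, the cytokine that limits inflammatory output, had 6 tested peaks and 0 calls without the block. Their changes ran from -0.51 to 0.34 with Cort, -0.66 to 0.14 with Dex and -0.84 to 0.91 with IL4. Over the gene (chr1:131017914-131022078) the signal was 52.4, 82.2 and 55.9 CPM with Cort, 50.5, 80.1 and 53.3 with Dex, 42.9, 60.1 and 47.3 with IL4, and 57.6, 80.5 and 60.4 in vehicle. The groups overlapped, and the IL4 change of -0.4 ± 0.22 was called with the block alone (adjusted p = 0.207 without it and 0.00113 with it). With IL4 and the block, 1 of the 6 peaks was higher and 2 were lower, beside 21.9% and 21.6% of all tested peaks. The higher one (chr1:131026201-131026649) was at 1.49, 1.93 and 2.46 times vehicle within replicate numbers 1, 2 and 3. A peak at chr1:131014709-131016752 was at 0.48, 0.6 and 0.55 times vehicle. At chr1:131037483-131038983, 12.5 kb from the gene, the signal was 6.95, 8.02 and 5.95 CPM with Cort, 5.51, 7.56 and 5.85 with Dex, 6.28, 9.72 and 7.04 with IL4, and 11, 8.76 and 10.2 in vehicle. All steroid libraries were below vehicle, and the Dex change of -0.66 ± 0.22 was called with the block alone (adjusted p = 0.103 without it and 0.0121 with it).

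Cd40, the receptor through which T cells license macrophages, had a peak inside the gene that was called lower with Dex and higher with IL4. Inside the gene (chr2:165060327-165062446) the signal was 9.78, 14.3 and 11.6 CPM with Cort, 9.67, 12.3 and 8.26 with Dex, 30.4, 31.1 and 28.8 with IL4, and 17.2, 22.5 and 14.7 in vehicle. All steroid libraries lay below vehicle and all IL4 libraries above it. The peak fell with Dex (-0.85 ± 0.21, adjusted p = 0.032) and rose with IL4 (0.73 ± 0.2, adjusted p = 0.0159), and the Cort change of -0.6 ± 0.21 was called with the block alone (adjusted p = 0.198 without it and 0.0076 with it). The Dex and IL4 changes were called with the block too. In the fits with no block, the Dex call did not hold without vehicle 1 (0.0583), vehicle 2 (0.108), Dex 1 (0.11) or Dex 3 (0.144). The IL4 call did not hold there without vehicle 3 (0.0629). A small peak beside it (chr2:165059577-165060143) held 1.73, 3.24 and 2.23 CPM with IL4 and 0.867, 0.491 and 0.558 in vehicle. The IL4 libraries were all above vehicle, and it rose by 1.95 ± 0.51 (adjusted p = 0.0121, and 0.0523 without vehicle 2 or 0.0513 without vehicle 3). At the lower-coordinate end of Cd40 (chr2:165054588-165056367) the signal was 3.54, 20.2 and 4.71 CPM with Cort, 5.87, 19.3 and 5.85 with Dex, 11.7, 25.4 and 9.07 with IL4, and 9.91, 17.2 and 8.31 in vehicle, where replicate 2 stood above the others in each group and no change was called with or without the block.

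**Figure D4:**
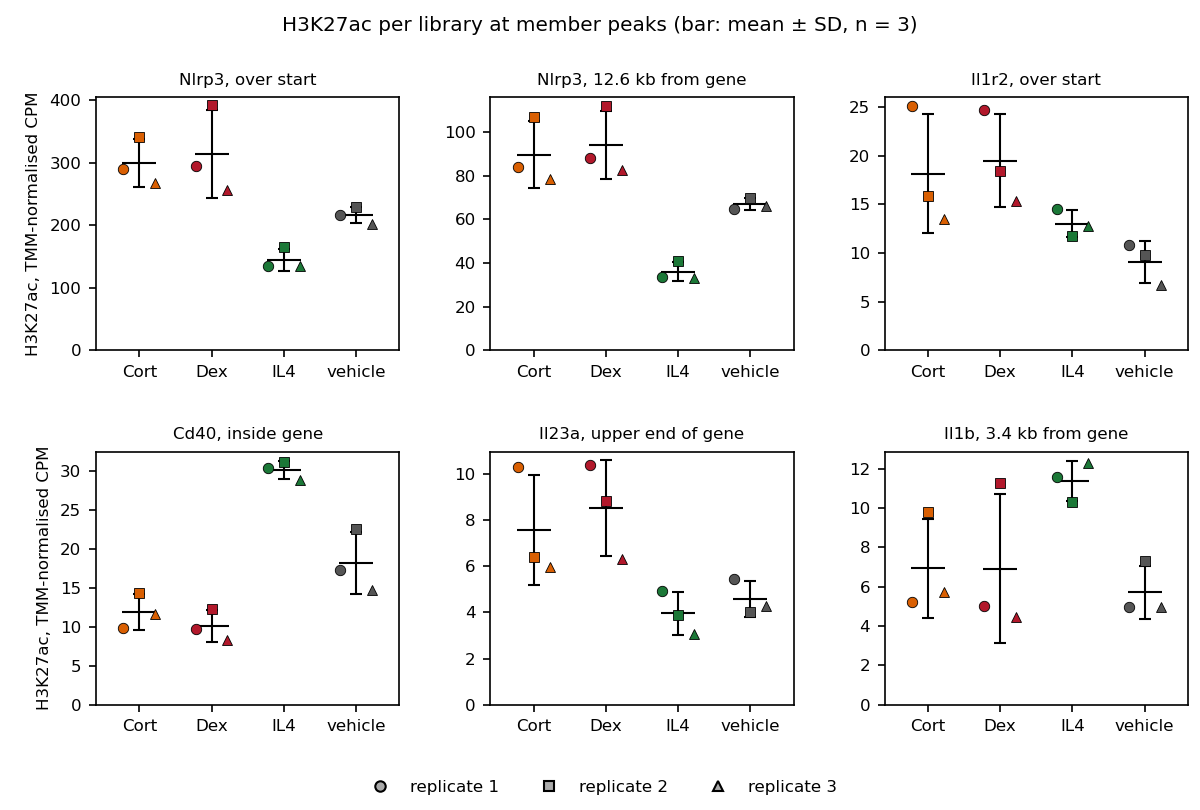
H3K27ac (y axis, TMM-normalised CPM) per library at 6 peaks, with points shaped by replicate number and bars at the mean ± SD of 3 libraries. At the Nlrp3 start the steroid libraries sit between 256 and 392 CPM, IL4 between 135 and 165 and vehicle between 203 and 229, and inside Cd40 IL4 sits between 28.8 and 31.1 and the steroids between 8.26 and 14.3.

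Replicate 2 was the highest of the 3 libraries in all 4 groups at 15 of the 48 peaks (31.2%), against 12.4% of all tested peaks, and replicates 1 and 3 were so at 2 (4.17%, against 5.04%) and 0 (0%, against 6.17%). At the lower end of Cd40 replicate 2 was 4.9 times the mean of the other libraries with Cort, 3.29 times with Dex, 2.45 times with IL4 and 1.89 times in vehicle. At the upstream Il1b peak these ratios were 2.38, 2.82, 1.44 and 1.58, and at Tnf 1.64, 2.06, 1.28 and 1.33, in the same order of groups. The labels do not say what sets replicate 2 apart, and its part in the results was not tested beyond leaving it out. Without replicate 2 of every group, 42 peaks were tested and 2 were called with Cort (both lower), 9 with Dex (2 higher, 7 lower) and 12 with IL4 (4 higher, 8 lower). Of all peaks tested in that fit, 4.99% were called with Cort (2.57% higher, 2.42% lower), 10.4% with Dex (5.03% higher, 5.36% lower) and 29.5% with IL4 (15.5% higher, 14% lower). The upstream Il1b peak was then lower with Cort (-0.83 ± 0.15, adjusted p = 0.0116), Dex (-1.0 ± 0.15, 0.00209) and IL4 (-0.58 ± 0.15, 0.0132). Tnf was then lower with Dex (-0.55 ± 0.12, adjusted p = 0.0118), with -0.3 ± 0.12 for Cort (0.177) and -0.12 ± 0.11 for IL4 (0.479). The weak Tnf peak was lower with Dex as well (-1.5 ± 0.41, 0.0383), and was not called with Cort (0.63) or IL4 (0.777). The lower end of Cd40 was lower with Cort (-1.13 ± 0.24, 0.0244), the Il1r2 start was higher with Dex (1.21 ± 0.32, 0.0359), and Nlrp3 over its start was higher with Dex (0.38 ± 0.11, 0.0499).

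**Figure D5:**
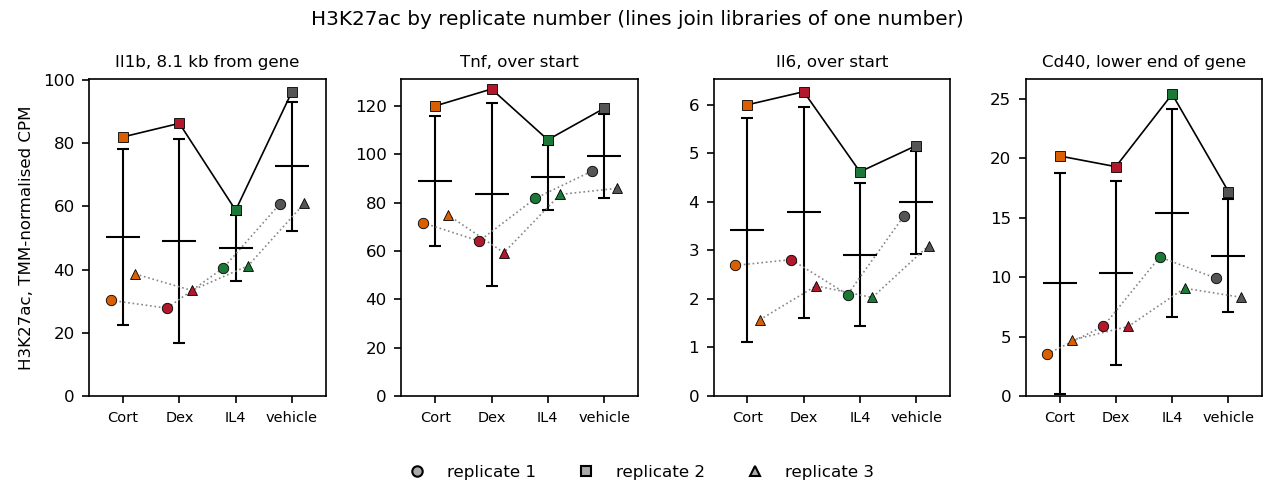
H3K27ac (y axis, TMM-normalised CPM) by group at 4 peaks of Il1b, Tnf, Il6 and Cd40, with lines joining libraries of the same replicate number and bars at the mean ± SD of 3 libraries. The replicate 2 line lies above the other 2 lines in every group, for example at 120, 127, 106 and 119 CPM at Tnf.

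Dex and Cort were not told apart at any of these peaks. Of the 48 H3K27ac peaks 0 were called between Dex and Cort by edgeR and by DESeq2, as was 0% of all tested peaks. An unadjusted p under 0.05 in edgeR was found at 2 of the 48, beside 793 of all 59881 tested peaks. The Dex change relative to Cort was 0.07 at the Nlrp3 start (95% interval -0.27 to 0.4), 0.11 at the Il1r2 start (-0.44 to 0.66), 0.17 at Il23a (-0.41 to 0.76) and -0.25 inside Cd40 (-0.7 to 0.21). At the GR site of the Nlrp3 start it was 0.15 (-0.62 to 0.91).

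Cort and Dex were also compared with IL4, in comparisons that share libraries with those above. Against IL4, 8 of the 48 H3K27ac peaks were higher and 3 lower with Cort, and 8 higher and 4 lower with Dex. Of all tested peaks, 25% were called with Cort against IL4 (11.3% higher, 13.7% lower) and 26.7% with Dex against IL4 (12.1% higher, 14.6% lower). The total shares among the 48 peaks were close to these. By direction they differed, since more of the called members were higher than lower, and over all tested peaks more were lower. This difference was not tested. At the Nlrp3 start, given per library above, Cort exceeded IL4 by 1.05 ± 0.16 (adjusted p = 0.000371) and Dex by 1.12 ± 0.16 (0.00021). Of the peaks higher than with IL4, 7 of 8 with Cort and 7 of 8 with Dex belonged to Nlrp3, and the remaining 1 was that of Il23a, at 0.94 ± 0.28 with Cort (0.0265) and 1.11 ± 0.28 with Dex (0.00981). The peak inside Cd40 was lower than with IL4 by -1.33 ± 0.21 with Cort (0.000463) and -1.58 ± 0.21 with Dex (0.000123), and that inside Il1rn by -1.1 ± 0.32 (0.0226) and -1.07 ± 0.32 (0.0232). The calls at the 3 strong Nlrp3 peaks and inside Cd40 held in all 6 leave-one-out fits of each comparison. No GR peak of these genes was called against IL4, beside 6.68% of all tested GR peaks with Cort and 9.15% with Dex.

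Other genes of these pathways moved in both directions. Of all tested peaks, 1.55% were called with Cort, 5.24% with Dex and 27.6% with IL4. With the replicate block these shares were 12.6%, 20.3% and 43.5%. No list was tested against these shares. Of 20 listed inflammasome genes 19 had tested H3K27ac peaks (93 peaks), of which 2 rose and 1 fell with Cort, 4 rose and 1 fell with Dex, and 6 rose and 8 fell with IL4. With the replicate block these counts were 5 and 2 with Cort, 12 and 4 with Dex, and 14 and 16 with IL4. Peaks at Ninj1, which ruptures the membrane in lytic death, and P2rx7, the ATP-gated channel upstream of Nlrp3, rose with Cort (0.55 ± 0.11, adjusted p = 0.0268, and 0.96 ± 0.21, 0.0342) and Dex (0.66 ± 0.11, 0.00472, and 1.14 ± 0.2, 0.00664), and a peak at Nek7, an Nlrp3 partner, fell with both (-0.72 ± 0.16, 0.043, and -0.86 ± 0.16, 0.0083). With IL4, other peaks at P2rx7 and Nlrc4, a sensor of bacterial proteins, fell (-1.59 ± 0.19, 8.72e-05, and -1.16 ± 0.24, 0.00327). Of 74 tested peaks at 15 of 18 listed IL1 family and signalling genes, 1 rose with Cort, 2 rose and 2 fell with Dex, and 13 rose and 18 fell with IL4. With the block 8 rose and 3 fell with Cort, 9 rose and 14 fell with Dex, and 19 rose and 26 fell with IL4. Il18bp, the IL18 inhibitor, rose with Cort and Dex (0.82 ± 0.17, 0.0292, and 0.89 ± 0.17, 0.00935), and with IL4 Il1rl1, the IL33 receptor, rose (2.28 ± 0.28, 8.49e-05) while the adaptor Myd88 (-1.31 ± 0.16, 0.000102) and Traf6 (-1.53 ± 0.21, 0.000227) fell.

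Of 103 tested peaks at 17 TNF and CD40 signalling genes, 1 rose with Cort, 1 rose and 3 fell with Dex, and 9 rose and 11 fell with IL4. Of all tested peaks, 1.55% were called with Cort, 5.24% with Dex and 27.6% with IL4, and 12.6%, 20.3% and 43.5% with the block. With the block more peaks fell than rose with each treatment, at 3 higher and 10 lower with Cort, 7 and 17 with Dex, and 12 and 29 with IL4. Birc3, an inhibitor of cell death downstream of TNF receptors, rose with Cort (1.19 ± 0.16, adjusted p = 0.00219) and Dex (1.34 ± 0.16, 0.000545), and its GR peak rose with Cort (1.34 ± 0.35, 0.0121) and Dex (1.84 ± 0.34, 0.00139). Another Birc3 peak fell with IL4 (-2.08 ± 0.41, 0.00246), and Traf5, a CD40 signalling adaptor, rose (3.84 ± 0.28, 1.99e-06). Of 116 tested peaks at 15 of 18 genes of the IL6, IL12, IL23 and IL10 axis, 3 rose with Cort and 8 with Dex and 0 fell, and 28 rose and 17 fell with IL4. With the block 21 rose and 2 fell with Cort, 21 rose and 4 fell with Dex, and 32 rose and 32 fell with IL4. Il6st, the shared signalling receptor of the IL6 family, rose with Cort (0.62 ± 0.13, 0.0333), Dex (0.7 ± 0.13, 0.00859) and IL4 (1.72 ± 0.13, 3.3e-06).

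The H3K27ac patterns most like the 3 peaks of these genes with the smallest p were taken by Pearson correlation of log2 CPM over the 12 libraries, which share their groups and depth. For the Nlrp3 peak 12.6 kb upstream they were peaks at Ctla2b (r = 0.99), Fyb (0.99) and Fbh1 (0.989), and for the one 5.4 kb upstream peaks at Cd55b (0.989), Cd55 (0.988) and Fyb (0.985). For the Il1r2 start they were peaks at Dab2 (0.954), Trim72 (0.953) and Ccr1 (0.944).

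Marker genes of other cell types also moved with the groups. Summed H3K27ac at 6 dendritic cell markers was 190 to 258 CPM with Cort, 211 to 239 with Dex, 97 to 123 with IL4 and 190 to 278 in vehicle, and that at 3 neutrophil markers with tested peaks, of 6 listed, was 126 to 165, 120 to 159, 192 to 246 and 112 to 147. At 3 of 6 lymphoid markers it was 154 to 191 CPM with Cort, 156 to 174 with Dex, 189 to 215 with IL4 and 205 to 241 in vehicle, so both steroid groups lay below vehicle. At the only fibroblast marker of 6 with tested peaks it was 64.6 to 82.8 CPM with Cort, 69.4 to 83 with Dex, 67.9 to 86.2 with IL4 and 52.5 to 61.5 in vehicle, with all treated libraries above vehicle. At 2 of 5 mast cell and basophil markers the groups overlapped, between 4.4 and 6.75 CPM. Macrophage markers summed to 2600 to 3050 CPM with Cort, 2590 to 3030 with Dex, 2200 to 2620 with IL4 and 2310 to 2720 in vehicle. The neutrophil genes S100a9, Ly6g and Mpo, the lymphoid genes Cd3e and Nkg7, the fibroblast genes Col1a1, Col1a2, Pdgfra, Dcn and Lum and the mast cell genes Mcpt8, Ms4a2 and Fcer1a had no tested peak. The part of these markers in the steroid and IL4 changes was not tested.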

How the data were processed

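H3K27ac and GR ChIP-seq counts per peak were deposited by the authors as whole reads in 1 common peak set per mark. Formaldehyde fixed the cells for both marks, after disuccinimidyl glutamate for GR, per the labels' protocols. The tools named are fastp, Bowtie2, SAMtools, MACS2 and featureCounts, with build mm10, per the submitters' processing notes; their settings, and the criterion behind a column marking peaks as filtered, are not given in the sources used here. Count columns headed C were taken as vehicle because the other headings name Cort, Dex and IL4. The input library was not analysed here.

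Counts were tested with edgeR 4.0.16 (R 4.3.3): TMM scaling, a filter on low counts by group, and quasi-likelihood F tests over all libraries of a mark, with batch as a covariate for GR, and p-values adjusted by Benjamini-Hochberg over all tested peaks. GR IL4 libraries are in batch 2 alone, so their comparisons rest on that batch and on the batch difference of the other groups. Alternatives were other scalings, DESeq2 1.42.0, no filter, other gene distances, the replicate block, batches alone and leaving out libraries. The leave-one-out fits of H3K27ac had no replicate block. Same-numbered H3K27ac libraries of different groups deviated together from their group means (r = 0.414 to 0.878 in 18 pairs, against -0.698 to 0.252 in 36 other pairs), so the numbers were taken to pair them and the blocked value stands where it changes a call.

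The members and lists were chosen with earlier results of these data known. All 10 genes are named, with the peak over a start (or, with no start known, the peak at a gene end with most reads) and the peak with the smallest p against vehicle; other peaks named were chosen after their values were seen. A count of 0 allows up to 3 reads, for counting error only. Bulk counts give limited depth at weak peaks, where 1 read more or less moves a value most.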

Additional observations from a re-analysis of the deposited data

Results flagged for a closer look

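The GR peak inside Tnf (chr17:35201720-35201827) had 1 vehicle library far from the others, with 15.6 CPM in vehicle 2 and 1.42, 0.635 and 2.58 CPM in vehicle 1, 3 and 4. The gap to the nearest library, as a share of the whole range of the 4 libraries, was above the critical value of Dixon's test at the 95% level, which chance passes in about 1 in 20 groups. That rate takes the 4 libraries as 1 group, though vehicle 1 and 2 are of batch 1 and vehicle 3 and 4 of batch 2. With Cort and with Dex, both batch 1 libraries lay above both batch 2 libraries at this peak. Vehicle 2 also had the highest value of its group at the GR peak inside Il1b, at 15.6 CPM against 2.83, 1.27 and 5.17 CPM, where the gap did not pass the critical value.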

How the results depend on the processing

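The counts of called peaks depended on the processing, and so did the balance of higher and lower calls. Without replicate 2 the Dex calls were 2 higher and 7 lower, and with the block as well they were 7 higher and 10 lower with Dex and 5 higher and 7 lower with Cort, against 9 higher and 3 lower and 7 higher and 2 lower with the block over all libraries. Of the peaks named by rule, no change called in the fits compared took the other sign, but uncalled ones did: GR at Tnf was 0.17 with Cort and 0.42 with Dex by total counts, against -0.63 and -0.55, and -0.93 with IL4 with no batch term, against 0.96. With H3K27ac, the 0 Cort calls against vehicle among 48 peaks became 1 by DESeq2, 1 with scaling on low-count peaks and 9 with the replicate block. With the block and without replicate 2 they became 12 of 42. Of all 59881 tested peaks, 704 were called higher and 225 lower with Cort. By DESeq2 these were 1217 and 695, with scaling on low-count peaks 593 and 71, and with the block 3858 and 3673. With the block and without replicate 2 they were 4295 and 4445 of 54275. The 3 Dex calls among 48 peaks became 6 by DESeq2, 1 with a floor of 1 on the log2 change and 12 with the block. They became 1 of 44 with the compared groups alone and 1 of 34 by nearest start within 50 kb. With the block and without replicate 2 they became 17 of 42. Over all tested peaks 1734 were called higher and 1404 lower with Dex, and 2194 and 1999 by DESeq2. The compared groups alone gave 1157 and 819 of 54495, and the block 5937 and 6194. With the block and without replicate 2 they were 5883 and 6427 of 54275. The 7 IL4 calls among 48 peaks became 2 with a floor of 1 on the log2 change and 19 with the block. They became 13 of 45 with the compared groups alone and 4 of 25 peaks the authors marked as filtered. With the block and without replicate 2 they became 18 of 42. Over all tested peaks 8827 were called higher and 7711 lower with IL4. The compared groups alone gave 9791 and 8692 of 55510, filtered peaks 6673 and 5627 of 33835, and the block 13134 and 12923. With the block and without replicate 2 they were 11526 and 11041 of 54275. The 11 calls of Cort against IL4 among 48 peaks became 7 of 25 filtered peaks, 6 of 34 by nearest start and 23 of 48 with the block. With the block and without replicate 2 they became 19 of 42. The 12 of Dex against IL4 became 7, 6, 25 and 23 of the same numbers of peaks. For the floor and the nearest start no counts over all peaks are given here. Over all tested peaks 6741 were called higher and 8201 lower with Cort against IL4, and 7238 and 8736 with Dex. Filtered peaks gave 5537 and 6484 of 33835 with Cort and 5753 and 6764 with Dex. The block gave 11915 and 12265 with Cort and 12669 and 12892 with Dex. With the block and without replicate 2 they were 9687 and 10935 of 54275, and 10800 and 12103. Leaving out replicates gave 0 to 2 calls with Cort, 0 to 9 with Dex and 3 to 12 with IL4 against vehicle, and 5 to 12 with Cort and 8 to 16 with Dex against IL4. For GR, the 1 Cort call against vehicle among 4 peaks became 2 by total counts and 2 in batch 1 alone. It became 2 of 2 among filtered peaks and 0 of 2 in batch 2 alone. The 2 Dex calls among 4 peaks became 1 with median-of-ratios scaling, 1 with scaling on low-count peaks and 1 with no batch term. In batch 2 alone they became 0 of 2. Of all 5183 tested GR peaks 662 were called higher and 769 lower with Cort, and 1556 and 24 by total counts. Filtered peaks gave 600 and 729 of 2294, and batch 1 alone 646 and 535 of 3975. With Dex 763 were higher and 809 lower. These were 668 and 872 with median-of-ratios scaling, 729 and 735 with scaling on low-count peaks and 680 and 563 with no batch term. Batch 2 alone called 0 of 4714 with either steroid. Leaving out replicates gave 1 to 2 calls with either steroid, and Dex against IL4, with 0 calls, had 1 by total counts and 1 with the compared groups alone. Over all GR peaks, Dex against IL4 had 400 higher and 74 lower, and 789 and 48 by total counts. The compared groups alone gave 581 and 452 of 3452. GR replicate numbers did not pair the libraries (r = -0.589 to 0.286 in 12 same-number pairs), and with the replicate block 1 of 3 tested GR peaks was called with Cort and 2 with Dex. Of all 4096 GR peaks tested with that block, 757 rose and 709 fell with Cort, and 861 rose and 764 fell with Dex. No paired GR fit was run for IL4. IL4 1 and 2 share their numbers with vehicle libraries of batch 1, and IL4 3 with vehicle 3 of batch 2. The cause of these moves was not tested.

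Depth limits the weak peaks: GR libraries had under 30 reads at the Nlrp3 start, and in batch 2 alone 2 member peaks were left to test. H3K27ac has 3 libraries per group, replicate 2 stands apart at many of these peaks, and what sets it apart is not in the labels. Peak counts cannot show which transcript a peak serves, and the gene named is the nearest one.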
